A study of Mus musculus with 15 samples.

Results

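The Slc25 genes encode the mitochondrial carrier proteins, and they were followed here in mouse embryonic stem cells (ESCs) depleted of TET1 or TET2. Members were all genes of the deposited table whose symbol is Slc25a followed by a number, with Slc25a31 left out, which gave 43 of 26061 genes. All 43 were above the lowest value of the table, which stands for 0 reads, in at least 5 of 15 libraries and were therefore tested. Slc25a15, the ornithine carrier, was set against the rest of the family. Its fall in TET2-depleted cells was already known from earlier results of these data when it was singled out, so its call is not independent evidence.

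Total RNA depleted of ribosomal RNA was sequenced from E14 cells, an ESC line of 129/Ola background grown without feeders in serum and LIF. Cells received 1 pLKO.1 lentiviral hairpin, either a non-targeting sequence (shScr), one against Tet1 (shTet1) or one against Tet2 (shTet2), and were collected after 3 days of puromycin selection. Each group had 5 libraries, and the controls thus carried the vector and the selection too. Nothing in the labels says that the 5 libraries came from separate cultures, so p-values measure the spread between these libraries, which may be partly technical.

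Mitochondrial carriers sit in the inner membrane and exchange nucleotides, phosphate, amino acids, carboxylates and cofactors between cytosol and matrix. They are built from similar repeats, each with a signature of the form P-x-[D/E]-x-x-[K/R]. Slc25a15 (ORNT1) brings ornithine into the matrix in exchange for citrulline, which joins the mitochondrial and cytosolic steps of the urea cycle and supplies ornithine for proline synthesis. TET1 and TET2 are dioxygenases that oxidise 5-methylcytosine in DNA.

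Between 15258291 and 35432425 reads per library were assigned to genes. The knockdown targets fell as labelled, with Tet1 reads in shTet1 at 27.8% and Tet2 reads in shTet2 at 26.6% of the shScr mean after scaling for depth. Within groups, gene values of library pairs correlated with r between 0.969 and 0.994 over 30 pairs. The embryonic stem cell markers were abundant throughout, at a summed level of 4935 to 5308 CPM (reads per 1000000 gene reads) in shScr libraries, 5538 to 6819 with shTet1 and 4129 to 5609 with shTet2. Markers of neural cells summed to 54.5 to 124 CPM, and those of trophoblast and of fibroblasts to at most 11.5 in any library, with 1 fibroblast marker at 0 in each group. The markers called by limma were Fgf4 of the stem cell list (−0.59, adjusted p = 0.0126) and Eomes of the trophoblast list (−0.94, adjusted p = 0.0185), both in shTet2 against shTet1, where 4.24% of all genes were called. In that comparison the 10 stem cell markers had a median difference of −0.41 and the 6 tested trophoblast markers one of 0.21. Against shScr, the stem cell markers had medians of 0.26 in shTet1 and −0.15 in shTet2, and the trophoblast markers −0.05 and 0.08. For shTet2 against shTet1, a fit with the replicate number as a term, which called 11.2% of all genes, gave further calls. Dppa5a was lower as well, and of the trophoblast list Krt7 and Gata3 were higher and Eomes lower. In shTet1 against shScr, that fit called Eomes higher, where it called 4.8% of all genes.

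Per transcript length the family was led by a few carriers. Levels are given as CPM per kilobase of annotated exon (RPKM), mean ± SD over 5 libraries. In shScr the ADP/ATP carrier Slc25a5 stood at 284 ± 66.2, the second ADP/ATP carrier Slc25a4 at 93.9 ± 24.9 and the aspartate-glutamate carrier Slc25a13 at 63.5 ± 11.01. They were followed by the pyrimidine nucleotide carrier Slc25a36 at 43.7 ± 17.9 and the peroxisomal cofactor carrier Slc25a17 at 42.99 ± 11.7, whose ranges overlapped. These 5 members held 69.9% of the summed level of the family in shScr, and the leading 5 held 69.6% in both knockdowns.

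At the other end, 14 of 43 members lay above 10 RPKM and 28 above 1 RPKM in shScr, against 15 and 29 in shTet1 and 14 and 28 in shTet2. Slc25a21, the oxodicarboxylate carrier, had at most 3 reads in any library. Slc25a29, a carrier of basic amino acids, had 0 to 15 reads. Summed over the family, the level reached 756 ± 64.1 RPKM with shScr, 825 ± 22.9 with shTet1 and 759 ± 49.1 with shTet2, and the ranges of the 3 groups overlapped. Members took 0.202%, 0.222% and 0.198% of all gene reads. Part of the exon sequence of some members also occurs elsewhere in the genome (39.8% of the 50-base stretches of Slc25a5, 20.7% of Slc25a40, 17.2% of Slc25a36, 15.3% of Slc25a35 and 9.45% of Slc25a43), and reads of these genes are uncertain in their assignment.

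**Figure D1:**
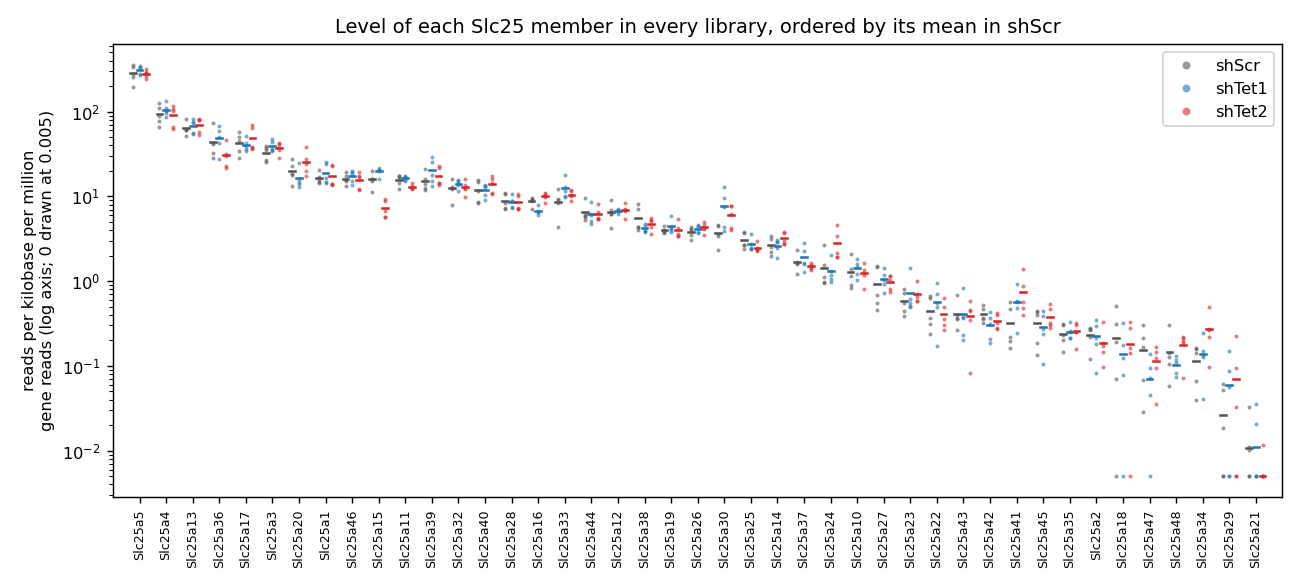
Level of the 43 Slc25 members in each library, in RPKM on a log axis, with members ordered along the horizontal axis by their mean in shScr. Points are libraries and short lines are means of 5 libraries per group, with values of 0 drawn at 0.005. Levels run from 284 for Slc25a5 to 0.011 for Slc25a21 in shScr, and Slc25a15 is the member whose 5 shTet2 points lie apart from the points of both other groups.

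Slc25a15 (ENSMUSG00000031482.8) lies on chromosome 8 between 23486026 and 23509093 of mm9, on the minus strand. None of its 50-base exonic stretches occurs elsewhere in the genome, and no annotated exon overlaps it on the other strand. RefSeq (build GRCm38.p6) gives the gene a pair of start sites, and both start windows of 300 bases were found as exact matches in mm9. The upstream window, chr8:23509044-23509343, held 15 CpG dinucleotides. The downstream window, chr8:23508700-23508999, held 51, and 99.3% of 32851 promoter windows of the same length in the RefSeq table held fewer. Over 42 windows of the 33 members with an entry, the median was 15 CpG, against 7 over all windows. At least 1 CpG was present in all 42 member windows and in 94.6% of all windows. DNA methylation was not measured in these libraries, and the count describes the sequence only.

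The stretches before the start sites of Slc25a15 are printed 5′ to 3′ on the strand of the gene with each CpG in capitals, since TET enzymes act at methylated CpG and Slc25a15 is the member that the results turn on. Those of Slc25a16 and Slc25a36 are shown for comparison as members that differed in the opposite and in the same direction in shTet2 against shTet1. Exonic bases were left out. The first stretch of Slc25a15 lies in the 5′ flank (chr8:23509094-23509343, minus strand) with 11 CpG in 250 bases. The second lies in the first intron of the annotated transcript (chr8:23508750-23508911, minus strand) with 28 CpG in 162 bases. That of Slc25a16 (chr10:62383131-62383380, plus strand) held 18 CpG in 250 bases, and that of Slc25a36 (chr9:97011577-97011710, minus strand) 11 in 134 bases.
Slc25a15 upstream: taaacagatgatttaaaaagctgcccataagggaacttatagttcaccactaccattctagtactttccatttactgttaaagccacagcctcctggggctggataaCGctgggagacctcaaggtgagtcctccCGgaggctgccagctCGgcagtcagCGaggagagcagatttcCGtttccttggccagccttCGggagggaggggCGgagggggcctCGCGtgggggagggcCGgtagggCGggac
Slc25a15 intronic: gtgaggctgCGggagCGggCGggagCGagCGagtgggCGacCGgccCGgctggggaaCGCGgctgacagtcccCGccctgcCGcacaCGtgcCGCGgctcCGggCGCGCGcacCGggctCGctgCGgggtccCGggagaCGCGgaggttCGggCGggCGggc
Slc25a16 upstream: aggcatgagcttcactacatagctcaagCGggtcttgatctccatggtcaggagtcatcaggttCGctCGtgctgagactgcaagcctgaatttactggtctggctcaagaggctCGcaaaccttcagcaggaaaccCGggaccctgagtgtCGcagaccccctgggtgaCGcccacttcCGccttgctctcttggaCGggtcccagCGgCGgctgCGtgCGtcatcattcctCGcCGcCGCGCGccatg
Slc25a36 upstream: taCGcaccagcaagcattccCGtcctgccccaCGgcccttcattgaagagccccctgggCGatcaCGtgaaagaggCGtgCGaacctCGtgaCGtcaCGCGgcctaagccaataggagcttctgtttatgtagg

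The 17.3 CpG per 100 bases of the intronic stretch of Slc25a15 compare with 4.4 in its own upstream stretch, 7.20 in that of Slc25a16 and 8.21 in that of Slc25a36. The dense stretch begins directly at the end of the first exon, whereas the stretches it is compared with lie in 5′ flanks. Such density was not particular to Slc25a15. The start windows of 300 bases of Slc25a40 and Slc25a39 held 47 and 45 CpG, against 51 in the downstream window of Slc25a15. Slc25a40 and Slc25a39 differed by 0.17 and 0.10 in shTet2 against shScr, and neither was called. Whether CpG density had a part in the values of any member was not tested.

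Slc25a15 was the member with the lowest difference in TET2-depleted cells. On the deposited variance-stabilised log2 scale, the values of the 5 shScr libraries were 10.28, 10.32, 10.39, 9.76 and 10.66. Those of shTet1 were 10.55, 10.52, 10.66, 10.24 and 10.86. Those of shTet2 were 9.01, 8.81, 9.50, 8.77 and 9.59. All 5 shTet2 libraries lay below every library of both other groups, whereas shScr and shTet1 overlapped. Behind these values stood 747 to 1543 reads in shScr, 1128 to 2004 in shTet1 and 465 to 700 in shTet2.

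Against shScr, Slc25a15 fell by 1.15 in shTet2 on the log2 scale (95% confidence interval −1.54 to −0.75, adjusted p = 0.0131), to 44.0% of the depth-scaled reads. It ranked 7th from the lowest difference among 19490 genes tested and 1st of 43 members. The exact permutation test of 5 against 5 libraries gave p = 0.00794, two-sided, which is the smallest value this design allows. The difference was −1.39 over replicates 1 and 2 and −0.98 over replicates 3 to 5, a split seen in earlier results of these data for which the labels name no batch. The call was lost without shTet2 replicate 1 (adjusted p = 0.0509) and without shTet2 replicate 2 (adjusted p = 0.0589).

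In shTet1, Slc25a15 was 0.28 above shScr (95% confidence interval −0.11 to 0.68, adjusted p = 0.616), with the shTet1 library higher in 5 of 5 pairs of the same replicate number. With the replicate number as a term, the interval ran from 0.06 to 0.50 and the adjusted p was 0.129. A rise in shTet1 was thus not called in either fit. Between the knockdowns, Slc25a15 was 1.43 lower in shTet2 than in shTet1 (95% confidence interval −1.83 to −1.03, adjusted p = 0.000232), at 36.3% of the scaled reads. This is also the contrast of the 2 effects, and its call remained in 10 of 10 fits that left out 1 library. It uses the same shTet2 libraries whose low values were known when Slc25a15 was chosen, so it is not independent evidence.

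Set against its family, Slc25a15 was lower in shTet2 while the family medians of the 3 groups overlapped. In shScr libraries the median value of the other 42 members ran from 7.64 to 8.24. It ran from 7.91 to 8.20 in shTet1 libraries and from 7.94 to 8.28 in shTet2 libraries. Slc25a15 exceeded that median by 2.32 ± 0.33 in shScr and by 2.49 ± 0.32 in shTet1, but by 1.04 ± 0.42 in shTet2. The highest shTet2 library (1.56) was below the lowest shScr library (1.93).

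Per length, Slc25a15 stood at 15.8 ± 3.04 RPKM in shScr, 19.8 ± 2.14 in shTet1 and 7.30 ± 1.70 in shTet2. By library it ranked 8 to 13 of 43 in shScr, 7 to 11 in shTet1 and 15 to 19 in shTet2. In shTet2 its mean lay between those of the mitoferrin Slc25a28 (8.49 ± 1.76) and the aspartate-glutamate carrier Slc25a12 (6.89 ± 1.03), from which it did not stand apart beyond the spread. It made up 2.09 ± 0.33% of the summed family level with shScr, 2.40 ± 0.30% with shTet1 and 0.967 ± 0.25% with shTet2.

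**Figure D2:**
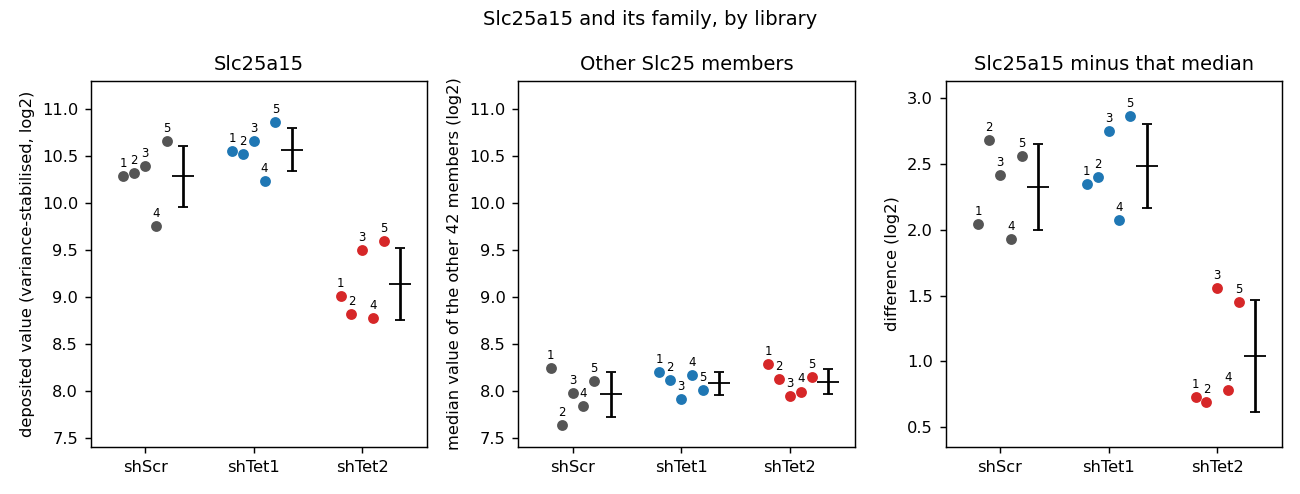
Slc25a15 by library. The left panel gives its deposited value (log2 scale), the middle panel the median value of the other 42 members on the same axis range, and the right panel the difference of the 2. Numbers are replicates, and black marks are the mean ± SD of 5 libraries. The shTet2 libraries lie between 8.77 and 9.59 on the left and between 0.69 and 1.56 on the right, below all others, while the family medians of the groups overlap.

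Primitive endoderm markers moved in the same comparison. They summed to 43.8 to 111 CPM in shScr libraries, 30.6 to 62.7 CPM with shTet1 and 13.4 to 41.4 CPM with shTet2. The median difference of the 8 markers in shTet2 against shScr was −0.75, with 0 called and 6 at an unadjusted limma p under 0.05, against 11.6% of all genes. The median in shTet2 against shTet1 was −0.43, with 0 called and 3 at an unadjusted p under 0.05, against 15.7% of all genes. Pdgfra and Dab2 were called lower in that comparison with the replicate number as a term, where 11.2% of all genes were. None of the 8 was at 0 reads in a whole group. Pdgfra, a receptor marking this lineage, differed by −0.95 in shTet2 against shScr (adjusted p = 0.0535). Whether these cells had a part in the values of Slc25a15 was not tested, and in bulk RNA fewer cells of a type and less RNA per cell cannot be told apart.

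Differences of the genes around Slc25a15 were smaller. The 12 tested genes within 250 kb ranged from −0.47 (Mrps31) to 0.55 (Thsd1) in shTet2 against shScr, and the lowest adjusted p was 0.170 (Mrps31). In shTet2 against shTet1, where 4.24% of all genes were called, 2 of 12 were called, the phosphate transporter gene Slc20a2 (−0.47) and the outer membrane channel gene Vdac3 (−0.50), both smaller than the difference of Slc25a15.

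Over the whole family, most members differed little between groups, as did most genes tested. In shTet2 against shScr, 1 of 43 members was called, Slc25a15, where 0.39% of all genes tested were called. At an unadjusted limma p under 0.05 there were 7 of 43 members (16.3%), against 11.6% of all genes. The median difference of the members was −0.02, against 0.04 for all genes tested. Within 0.5 of 0 in either direction lay 39 of 43 members and 18211 of 19490 genes tested. Groups of 5 libraries did not overlap for 1 member (2.33%), against 2.7% of all genes.

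In shTet1 against shScr, 0 of 43 members were called by limma, where 0.0718% of all genes were called, and 3 (6.98%) had an unadjusted p under 0.05, against 11.8% of all genes. The replicate numbers were treated as pairs in this comparison. With the replicate number as a term, 2 of 43 members (4.65%) were called, where 4.8% of all genes were. These were Slc25a16, which fell, and Slc25a30, which rose. The median difference was 0.06 for the members and 0.01 for all genes. Within 0.5 of 0 lay 42 of 43 members and 18214 of 19490 genes tested. Groups did not overlap for 0 members, against 2.62% of all genes.

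In shTet2 against shTet1, 2 of 43 members (4.65%) were called, Slc25a15 lower and Slc25a16 higher, where 4.24% of all genes were called. With the replicate number as a term, treated as a pairing here too, 6 of 43 (13.95%) were called, against 11.2% of all genes. Slc25a11, Slc25a15 and Slc25a36 were lower and Slc25a16, Slc25a20 and Slc25a24 higher in shTet2. The median difference was −0.04 for members and 0.01 for all genes. Within 0.5 of 0 lay 38 of 43 members and 17656 of 19490 genes tested. Groups did not overlap for 1 member (2.33%), Slc25a15, against 6.04% of all genes. The share of members called was near that of all genes in both fits. The 3 comparisons share libraries and are not independent of each other.

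**Figure D3:**
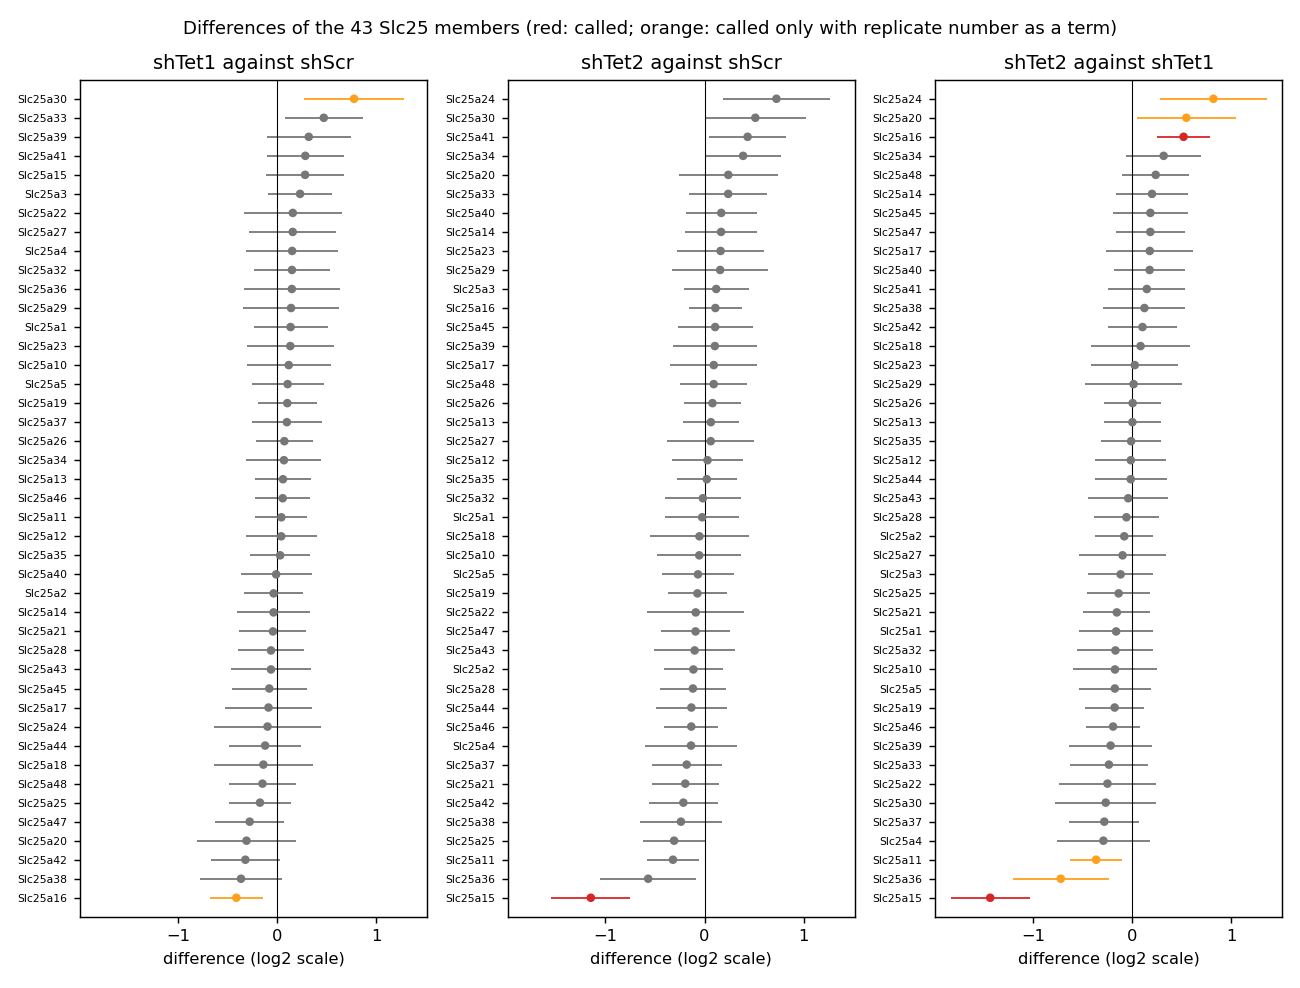
Difference of each of the 43 members in the 3 comparisons, on the log2 scale of the deposited values, with 95% confidence intervals from limma and members ordered by difference. Red marks members called at an adjusted p under 0.05, and orange those called only with the replicate number as a term in the 2 comparisons whose libraries were paired by number. Slc25a15 lies at −1.15 and −1.43 in the comparisons with shTet2, and the next member, Slc25a36, at −0.57 and −0.72. The intervals of these members overlap in both comparisons.

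Sorted by what they carry, the 9 amino acid carriers had a median difference of −0.09 in shTet2 against shScr, with 1 called (Slc25a15). All genes tested had a median of 0.04 there, and 0.39% of them were called. The 9 nucleotide and phosphate carriers had a median of 0.12 and 0 called, although they held the members with the highest and the second lowest difference, Slc25a24 (0.73) and Slc25a36 (−0.57). The 4 di- and tricarboxylate carriers had differences between −0.32 and −0.02 in shTet2 against shScr and between −0.36 and −0.15 against shTet1. Against shTet1, Slc25a11 alone was called, with the replicate number as a term, a fit that called 11.2% of all genes there. For the 9 carriers of cofactors, carnitine and glutathione, differences lay between −0.21 and 0.24 against shScr. The mitoferrins Slc25a28 and Slc25a37 differed by −0.12 and −0.18, and the 3 uncoupling-like carriers by 0.06 to 0.51. For the 7 members of other or unassigned substrate, the range was −0.13 to 0.39.

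Slc25a16, a carrier linked to coenzyme A, had the lowest difference of the family in shTet1. shScr libraries had values of 10.001, 10.08, 9.69, 9.90 and 9.995, shTet1 libraries of 9.40, 9.46, 9.42, 9.44 and 9.89, and shTet2 libraries of 10.10, 10.13, 9.88, 9.96 and 10.14. In shTet1, 4 of 5 libraries lay below all libraries of the other groups, and shTet1 replicate 5 lay within the range of the other groups. Against shScr the difference was −0.41 (95% confidence interval −0.68 to −0.14, adjusted p = 0.183), and with the replicate number as a term the adjusted p was 0.0299. Slc25a16 was 0.52 higher in shTet2 than in shTet1 (adjusted p = 0.0236, or 0.00277 with the replicate number as a term), in 5 of 5 pairs. That call remained in 3 of 10 fits that left out 1 library, with the adjusted p between 0.00645 and 0.0685. It was also lost with median centring (0.46, adjusted p = 0.0953). Against shScr, shTet2 differed by 0.11.

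Slc25a16 and Tet1 are neighbours. Slc25a16 lies on chromosome 10 between 62383381 and 62409246 of mm9 on the plus strand. Tet1 lies on the minus strand, so that the 2 genes are transcribed away from each other, 21.5 kb apart and with no tested gene between them. The 10 other tested genes within 250 kb differed by −0.33 to 0.64 in shTet1 against shScr, with 0 called by limma and 2 with the replicate number as a term, Dna2 and Gm16143, where 4.8% of all genes were called. Dna2, which starts 0.528 kb beyond Slc25a16 and encodes a nuclease-helicase of DNA replication, differed by 0.57 in shTet1 against shScr, opposite in sign to Slc25a16 (adjusted p = 0.0764, or 0.00654 with the replicate number as a term). Of these 10 genes, 3 were called in shTet2 against shTet1 by limma, where 4.24% of all genes were, and each differed by more than Slc25a16. Stox1 was 0.74 higher in shTet2 (adjusted p = 0.0288), Dna2 was 0.66 lower (adjusted p = 0.0046) and Gm16143 was 0.56 lower (adjusted p = 0.0152). Of the 10, 4 were called with the replicate number as a term, where 11.2% of all genes were. Whether the position of Slc25a16 had a part in its values was not tested.

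Slc25a36, one of the pyrimidine nucleotide carriers, was the second lowest member in both comparisons of shTet2. Values were 12.63, 12.68, 12.33, 13.37 and 12.13 with shScr, 13.01, 12.80, 12.66, 13.25 and 12.17 with shTet1, and 12.13, 12.04, 11.70, 12.65 and 11.79 with shTet2. Replicate 4 was the highest library of every group, so that the groups overlapped although shTet2 was lower in 5 of 5 pairs with shTet1. The difference was −0.57 against shScr (adjusted p = 0.333) and −0.72 against shTet1 (95% confidence interval −1.20 to −0.23, adjusted p = 0.0955, or 0.000205 with the replicate number as a term). The second was called as well with median centring (−0.77, adjusted p = 0.0446), with array weights (−0.76, adjusted p = 0.0268) and in 2 of 10 fits that left out 1 library.

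Slc25a24, a calcium-regulated carrier of ATP-Mg and phosphate, had the highest difference in shTet2. By library, values stood at 6.89, 6.78, 6.81, 7.19 and 7.94 for shScr, at 6.70, 6.90, 6.87, 7.50 and 7.18 for shTet1 and at 7.42, 7.44, 7.66, 8.10 and 8.63 for shTet2, from 60 to 416 reads. The highest shScr library overlapped shTet2. The difference was 0.73 against shScr (adjusted p = 0.246) and 0.82 against shTet1 (95% confidence interval 0.28 to 1.36, adjusted p = 0.0836, or 0.00197 with the replicate number as a term). Its mean level stood at 1.44 ± 0.71 RPKM with shScr, 1.31 ± 0.42 with shTet1 and 2.81 ± 1.18 with shTet2.

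Slc25a20, the carnitine-acylcarnitine carrier of fatty acid oxidation, had values of 9.10 to 10.19 in shScr, 9.03 to 10.13 in shTet1 and 9.54 to 10.61 in shTet2. Replicate 5 was the highest library in all 3 groups. shTet2 was 0.55 above shTet1 (adjusted p = 0.256, or 0.00541 with the replicate number as a term), in 5 of 5 pairs. Slc25a11, the oxoglutarate-malate carrier, had values of 9.32 to 9.78 in shScr, 9.49 to 9.83 in shTet1 and 9.12 to 9.50 in shTet2. It was 0.36 lower in shTet2 than in shTet1 (adjusted p = 0.127, or 0.0265 with the replicate number as a term), and the groups met at 9.49 and 9.50. An exon of Rnf167 on the other strand covers 8.92% of its exon bases.

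Slc25a30, one of the uncoupling-like carriers, had the highest difference in shTet1. The values of shScr were 7.68, 6.99, 7.76, 7.29 and 7.46, those of shTet1 8.95, 8.25, 7.67, 8.57 and 7.63, and those of shTet2 8.24, 8.28, 7.58, 7.98 and 7.66. In both knockdowns replicates 3 and 5 lay within the range of shScr and replicates 1, 2 and 4 above it. The difference of shTet1 was 0.78 (95% confidence interval 0.27 to 1.28, adjusted p = 0.186, or 0.0389 with the replicate number as a term), at 1.27 over replicates 1 and 2 and 0.45 over replicates 3 to 5. That of shTet2 was 0.51 (adjusted p = 0.426).

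**Figure D4:**
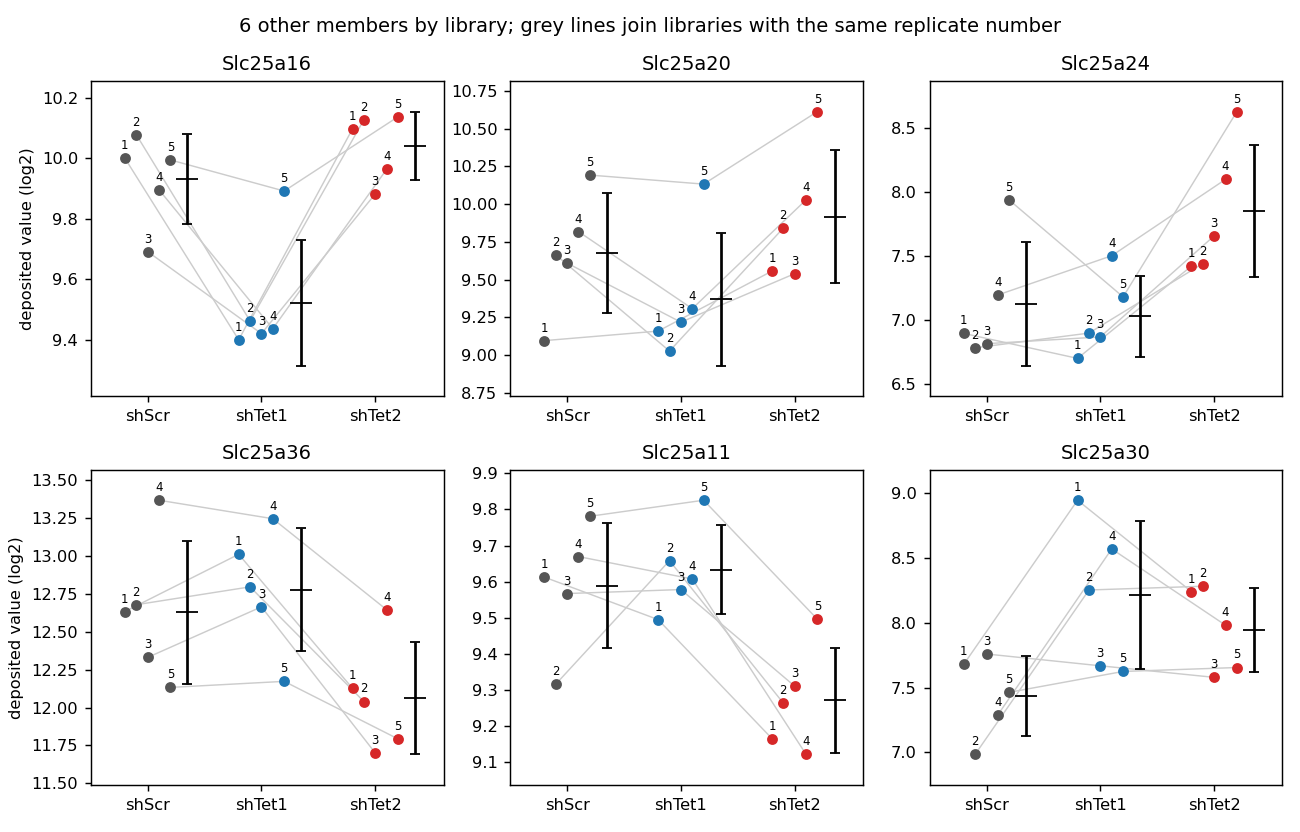
Deposited values (log2 scale) of 6 members called in at least 1 comparison, by library and group. Numbers are replicates, grey lines join libraries of the same replicate number, and black marks are the mean ± SD of 5 libraries. Libraries of one number often lie at like heights in all groups, as replicate 4 of Slc25a36 at 13.37, 13.25 and 12.65, and shTet1 replicate 5 of Slc25a16 stands at 9.89 above the other shTet1 libraries.

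The remaining members at the ends of the family list were not called, with or without the replicate number as a term. In shTet1 against shScr these were Slc25a33, a pyrimidine nucleotide carrier (0.47, adjusted p = 0.318), and Slc25a39, a glutathione importer (0.32). On the low side stood Slc25a38, the glycine carrier of haem synthesis (−0.36), and Slc25a42, a coenzyme A carrier (−0.32). In shTet2 against shScr, Slc25a25, a second ATP-Mg and phosphate carrier, differed by −0.31 (adjusted p = 0.450). In shTet2 against shTet1, Slc25a4 differed by −0.29 and Slc25a14 by 0.20.

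The members most like Slc25a15 in protein sequence were expressed at low levels, apart from Slc25a20. Proteins translated from the annotated coding sequences were aligned with that of Slc25a15 (301 residues). Slc25a2, the second ornithine carrier (ORNT2), was identical at 197 of 265 aligned positions (74.3%), Slc25a29 at 36.1% and Slc25a20 at 34.8%. Over the family, 26 members held 3 copies of the carrier signature, 11 held 2, 5 held 1, and Slc25a46, a protein of the outer membrane, held 0. Slc25a2 had 2 to 12 reads per library and a level of 0.232 ± 0.067 RPKM in shScr and 0.187 ± 0.088 in shTet2, and its difference was −0.11 (95% confidence interval −0.41 to 0.18). A moderate change in Slc25a2 could have been missed at this depth. Slc25a29 differed by 0.16 (95% confidence interval −0.34 to 0.65) from at most 15 reads per library.

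Enzymes and transporters of ornithine, arginine, proline and polyamines were read beside Slc25a15. Of 36 listed, 35 were tested, and 0 were called in either knockdown against shScr by limma, with 3 in shTet1 and 2 in shTet2 at an unadjusted p under 0.05, against 11.8% and 11.6% of all genes. The median differences were 0.03 in shTet1 and 0.04 in shTet2. With the replicate number as a term, 1 was called higher (Oat) and 1 lower (Arg2) in shTet1, where 4.8% of all genes were called. The largest differences in shTet2 against shScr were those of Arg1 (0.66), Slc7a1 (−0.50) and Arg2 (0.44). Otc, which makes citrulline from ornithine in the matrix, had 0 reads in every shScr library.

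In shTet2 against shTet1, 2 of the 35 were higher and 1 lower, with a median of −0.02, where 4.24% of all genes were called. Adding the replicate number as a term gave 5 higher and 2 lower, where 11.2% of all genes were called. Arg2, the mitochondrial arginase that forms ornithine, had values of 6.18, 6.71, 7.76, 7.39 and 8.13 in shTet1 and 8.22, 8.25, 8.59, 8.42 and 8.84 in shTet2. Every shTet2 library lay above every shTet1 library, and the difference was 1.23 (adjusted p = 0.0194). The shScr libraries lay between 7.49 and 8.36 and overlapped both knockdowns. Against shScr, Arg2 differed by −0.79 in shTet1 and by 0.44 in shTet2, and limma called neither without the replicate term. The cytosolic arginase Arg1 rested on 0 to 4 reads per library in shTet1 and 4 to 22 in shTet2 (adjusted p = 0.0113). Oat, the matrix aminotransferase that uses ornithine, had values of 11.04, 11.03, 11.06, 10.95 and 11.20 in shTet1 and 10.66, 10.65, 10.22, 10.38 and 10.76 in shTet2. It was 0.52 lower in shTet2, without overlap (adjusted p = 0.0312), and shScr lay between 10.37 and 10.86.

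**Figure D5:**
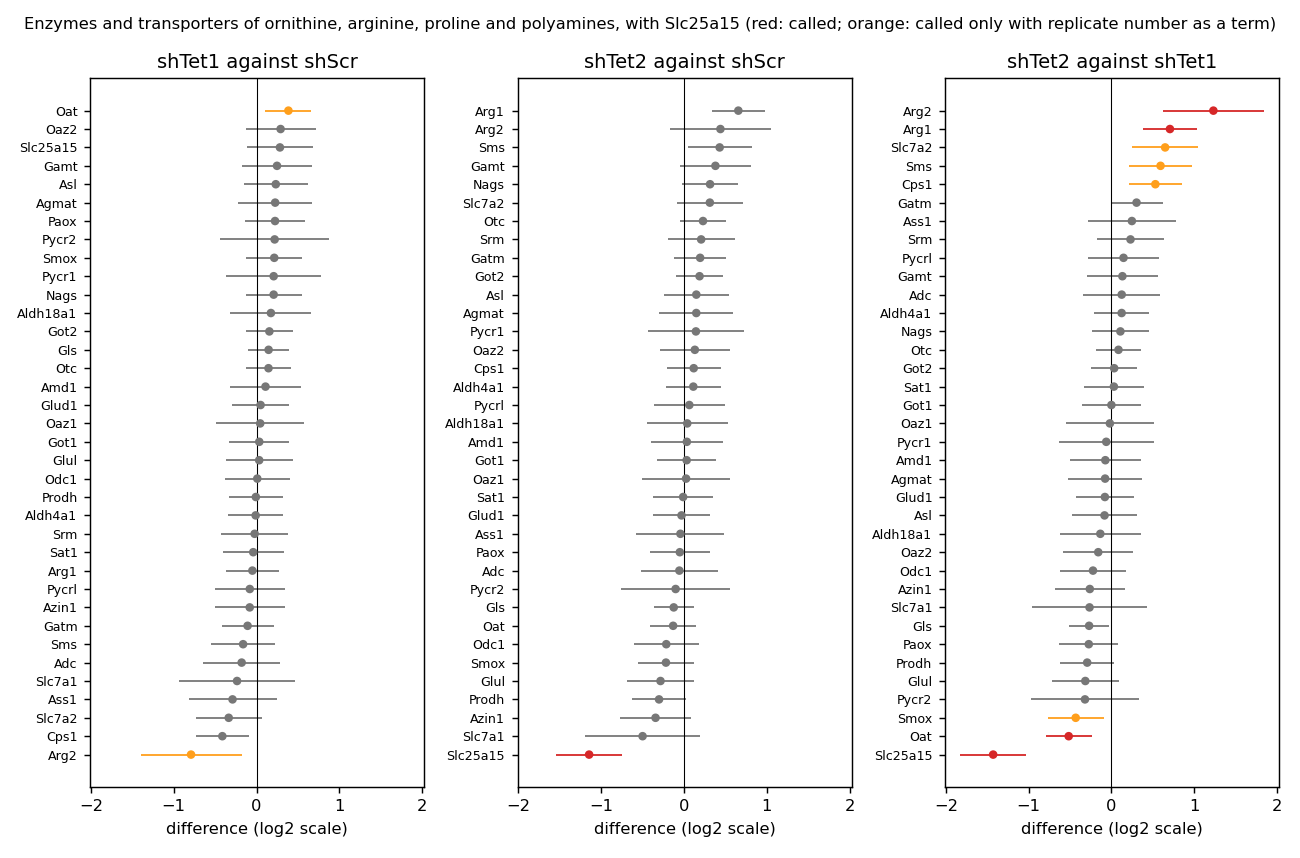
Difference of the 35 tested enzymes and transporters of ornithine, arginine, proline and polyamines, with Slc25a15 added, in the 3 comparisons on the log2 scale, with 95% confidence intervals from limma. Red marks genes called at an adjusted p under 0.05 and orange those called only with the replicate number as a term in comparisons with paired libraries. Slc25a15 is the lowest gene in both comparisons of shTet2, and Arg2 at 1.23 is the highest in shTet2 against shTet1.

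The machinery that imports and inserts carrier proteins was read in the same way. Of its 17 genes, 0 were called in any of the 3 comparisons by limma, with or without the replicate number as a term, and 0, 1 and 0 had an unadjusted p under 0.05, against 11.8%, 11.6% and 15.7% of all genes. Of 24 other transporters of mitochondrial membranes, 0 were called by limma in either knockdown against shScr, with 4 in shTet1 and 1 in shTet2 at an unadjusted p under 0.05, against the same 11.8% and 11.6%. In shTet2 against shTet1, 2 were lower, where 4.24% of all genes were called. These were Tmem14c, a porphyrin transporter of haem synthesis (−0.66, adjusted p = 0.0199), and Vdac3 (−0.50, adjusted p = 0.0473). Tmem14c had values of 9.40 to 9.77 in shTet1 and 8.72 to 9.28 in shTet2, without overlap, and 8.64 to 9.43 in shScr. With the replicate number as a term, 5 of the 24 were lower in shTet2 than in shTet1, where 11.2% of all genes were called. That fit called 1, Tmem14c, higher in shTet1 than in shScr, where it called 4.8% of all genes.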

How the data were processed

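RNA-seq values of 15 libraries, 5 for each of shScr, shTet1 and shTet2, were used. The authors trimmed reads with Trim Galore 0.3.3, aligned them to mm9 with TopHat2 2.0.9, counted them per gene in Seqmonk and normalised with DESeq2, and the deposited values are variance-stabilised and approach log2 for well-covered genes. On that scale changes of low genes are understated. The kit keeps strand, but whether counting used it is not given in the sources used here, nor is which library had which of the named RNA extraction methods. Undoing the transformation gave whole reads (within 0.05) for 100% of the values checked, which were those above the minimum of 4.25 except the highest counts. The highest counts, among them those of Slc25a5, were rounded without this check. Depth and RPKM were derived from the recovered reads. A repeat class table was not used, and 0 columns were left unmapped.

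Members, gene lists and the choice of Slc25a15 were made with earlier results of these data known. Genes above the minimum in at least 5 of 15 libraries (19490) were compared with limma 3.58.1 in R 4.3.3 (trended eBayes on the deposited values, group as the only term, two-sided). No count model was run on the recovered reads. P-values were adjusted by Benjamini-Hochberg over all genes tested, and "called" means an adjusted p under 0.05. The procedure was tested on simulated data whose libraries were drawn independently. That test did not cover the shared deviations of same-numbered libraries described below. Exon coordinates came from GENCODE vM1 and promoter windows from RefSeq. The text names Slc25a15, every member called, the 4 highest and 4 lowest differences per comparison among members of sufficient level, the 5 highest levels, the 3 proteins most identical to Slc25a15, and called genes of the partner lists. Dna2, Gm16143, Stox1, Mrps31, Thsd1 and Slc20a2 were named after their values were seen.

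Same-numbered libraries deviated together over all genes in shTet1 against shScr (r between 0.374 and 0.657 over 5 pairs) and in shTet2 against shTet1 (0.33 to 0.731), and there the numbers were treated as pairs. In shTet2 against shScr, replicate 3 had a correlation of 0.00789 and the others ran from 0.40 to 0.769. Because of the lowest, the numbers were treated as names only there. The replicate term was nevertheless fitted over all 15 libraries at once, so that it joined shTet2 and shScr by number too. Its calls in that comparison are given with the alternatives only. Libraries of unlike number were not compared in this way. Alternatives were other filters, scalings, pseudocounts, weights and terms, and leaving out each library.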

Additional observations from a re-analysis of the deposited data

Results flagged for a closer look

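Slc25a16 in shTet1 replicate 5 (9.89) stood apart from the other shTet1 libraries (9.40 to 9.46), and so did Slc25a20 in the same library (10.13, against 9.03 to 9.31). Among 42 groups of 5 values of 14 named members, these 2 met the threshold for a value far from the rest, where chance alone flags about 1 group in 20. The effect of shTet2 minus that of shTet1 was −1.43 for Slc25a15 and 0.52 for Slc25a16, tested as the difference between the knockdowns in limma.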

How the results depend on the processing

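Slc25a15 kept its direction in every alternative run, and its call in shTet2 against shTet1 as well. Leaving out 1 library moved its difference in shTet2 against shScr between −1.28 and −1.05, and the call was lost without shTet2 replicate 1 (−1.11) and without shTet2 replicate 2 (−1.07). Leaving out 1 library gave 0 to 1 called members in shTet2 against shScr and 1 to 3 in shTet2 against shTet1. With the replicate block, 2 members were called in shTet1 against shScr, 3 in shTet2 against shScr (Slc25a15, Slc25a24 and Slc25a36, where the numbers were not taken to pair the libraries, and where 4 of 8 primitive endoderm markers and 4.31% of all genes were called) and 6 in shTet2 against shTet1. Over all genes, the called counts were 14 (first comparison, shTet1 with shScr), 76 (second, shTet2 with shScr) and 827 (between the knockdowns), 935, 840 and 2178 with the replicate block, 264, 266 and 1263 with a term for replicates 1 and 2, and 56, 283 and 1246 with array weights. Quantile normalisation gave 22 in the first and 45 in the second, median centring 39 in the second, fitting only the groups compared 3 in the first, and a filter on all libraries 22 in the first. Without 1 library they ran from 1 to 171, 10 to 78 and 512 to 810. Median centring moved the median of all genes by −0.11 in shTet2 against shScr and that of the members to −0.12, and without 1 library the latter lay between −0.04 and 0.05. Members at few reads, such as Slc25a21, Slc25a29 and Slc25a2, could not show moderate changes at this depth.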
